A study of Homo sapiens with 12 samples.

Results

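The nonfibrillar collagens and the matrix glycoproteins and oxidases that assemble with them were followed in HK2 cells with and without FLCN knockdown. Members were the gene symbols of collagen chains outside collagens I, II, III, V, XI and XXVII, joined by 22 named glycoproteins, proteoglycans and lysyl oxidases. This gave 56 members, 34 of them collagen chains, of the 58288 gene IDs in the count table. COL24A1, a fibrillar-type chain, was retained by the rule.

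RNA sequencing was performed on HK2 cells, a line derived from human kidney proximal tubule, that carried either a nontarget control shRNA or an shRNA against FLCN, the gene mutated in Birt-Hogg-Dubé syndrome. Each was cultured short-term, below 30 passages, or long-term, above 120 passages by the labels, while the study's methods set that limit lower. This gave 4 groups of 3 libraries each, called biological replicates by the labels. The groups are named by culture time and by shRNA, nontarget or FLCN knockdown. The cells were clonal and the clone behind each library was not given in the sources used here, so effects of the shRNA, of the clone and of passage history cannot be told apart. Library totals ranged from 5825779 to 8991051 counts, and members held between 0.573% and 1.10% of the counts of a library. Replicate 3 stood apart from replicates 1 and 2, by the chi-square per degree of freedom of a pair of libraries over genes. Replicates 1 and 2 gave 2.13, 3.48, 5.15 and 3.87 in the short-term nontarget, short-term knockdown, long-term nontarget and long-term knockdown groups, while pairs with replicate 3 gave at least 4.22, 11.5, 6.67 and 10.3. No pair agreed within sampling noise. By the study's general methods experiments had 3 biological repeats. Whether each library came from its own culture was not given in the sources used here, so p-values measure the spread between these libraries.

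FLCN itself was measured first. Its level was 12.7, 16.7 and 16.5 CPM (counts scaled to library size with TMM factors) in the short-term nontarget libraries and 5.95, 6.58 and 5.66 CPM after short-term knockdown. In long-term culture it was 9.92, 11.9 and 12.2 CPM with the nontarget shRNA and 6.70, 6.31 and 7.97 CPM with FLCN shRNA. Every knockdown library was below every nontarget library of the same culture time. In the edgeR quasi-likelihood fit, with p-values adjusted by Benjamini-Hochberg over 13959 tested genes, FLCN fell in short-term cells (log2 change -1.29 ± 0.17, adjusted p = 1.12e-04) and in long-term cells (log2 change -0.68 ± 0.17, adjusted p = 0.00611). After a log2 change, ± is an approximate standard error, the absolute log2 change divided by the square root of the F statistic of its test. The difference between the 2 knockdown effects did not pass the test (adjusted p = 0.118). In bulk RNA, fewer cells that express a gene and less RNA per cell cannot be told apart.

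Collagen IV chains form the sheet-like network of basement membranes, on which tubule epithelium rests, whereas other nonfibrillar collagens coat fibrils, bead into filaments or anchor membranes to the stroma. Glycoproteins such as fibronectin, fibrillin and the thrombospondins link these networks to cells and growth factors, and lysyl oxidases crosslink collagen and elastin. Proximal tubule cells produce much of their own basement membrane.

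Of the 56 members, 32 passed the filter on low counts and were tested, 14 of them collagen chains. A member can pass through the group where it is high, and members were chosen with earlier results of these data known. The counts below therefore describe the tested members only. With short-term knockdown, 6 members rose and 6 fell, against 5.62% of all tested genes that rose and 4.71% that fell. With long-term knockdown, 8 rose and 15 fell, against 13.7% and 15.8% of all genes. The median absolute log2 change of the tested members was 0.47 with short-term and 1.17 with long-term knockdown, and over all tested genes 0.19 and 0.28. The signed medians of the members were 0.0045 and -0.023, and those of all tested genes 0.00013 and 0.00095. The short-term count of 12 fell to 7 without short-term nontarget replicate 1 or 2 or short-term knockdown replicate 1. Over all genes these fits called 874 of 14172, 906 of 14255 and 986 of 14191, against 1441 of 13959 with all libraries.

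Between culture times, 3 members were higher and 5 lower in long-term than in short-term nontarget cells, where 3.17% of all tested genes were higher and 4.38% lower. Among knockdown cells, 6 were higher and 14 lower in long-term culture, where 11.5% of all genes were higher and 15.2% lower. The long-term knockdown effect differed from the short-term one for 12 members, 3 with a positive and 9 with a negative difference, against 4.98% and 8.43% of all genes. The median log2 change of the tested members was 0.059 between nontarget groups, -0.41 between knockdown groups and -0.44 for the difference, beside 0.010, 0.012 and 0.0025 over all tested genes. Without a low-count filter, which raised the tested members to 54, 14 were called between nontarget groups and 19 for the difference, beside 1281 and 2168 of 26652 genes. Where the mean had to reach 10 CPM, 5 of 26 were called between nontarget groups, beside 666 of 9363 genes. Without replicate 3 of all groups 18 and 21 of 32 were called, beside 1586 and 2341 of 14083 genes. Comparisons that share a group are given by their own values. The 2 knockdown comparisons share no library: 9 of the 32 tested members were called in both, 7 of them in the same direction, beside 6.28% of all tested genes called in both, 79.8% of these in the same direction.

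**Figure D1:**
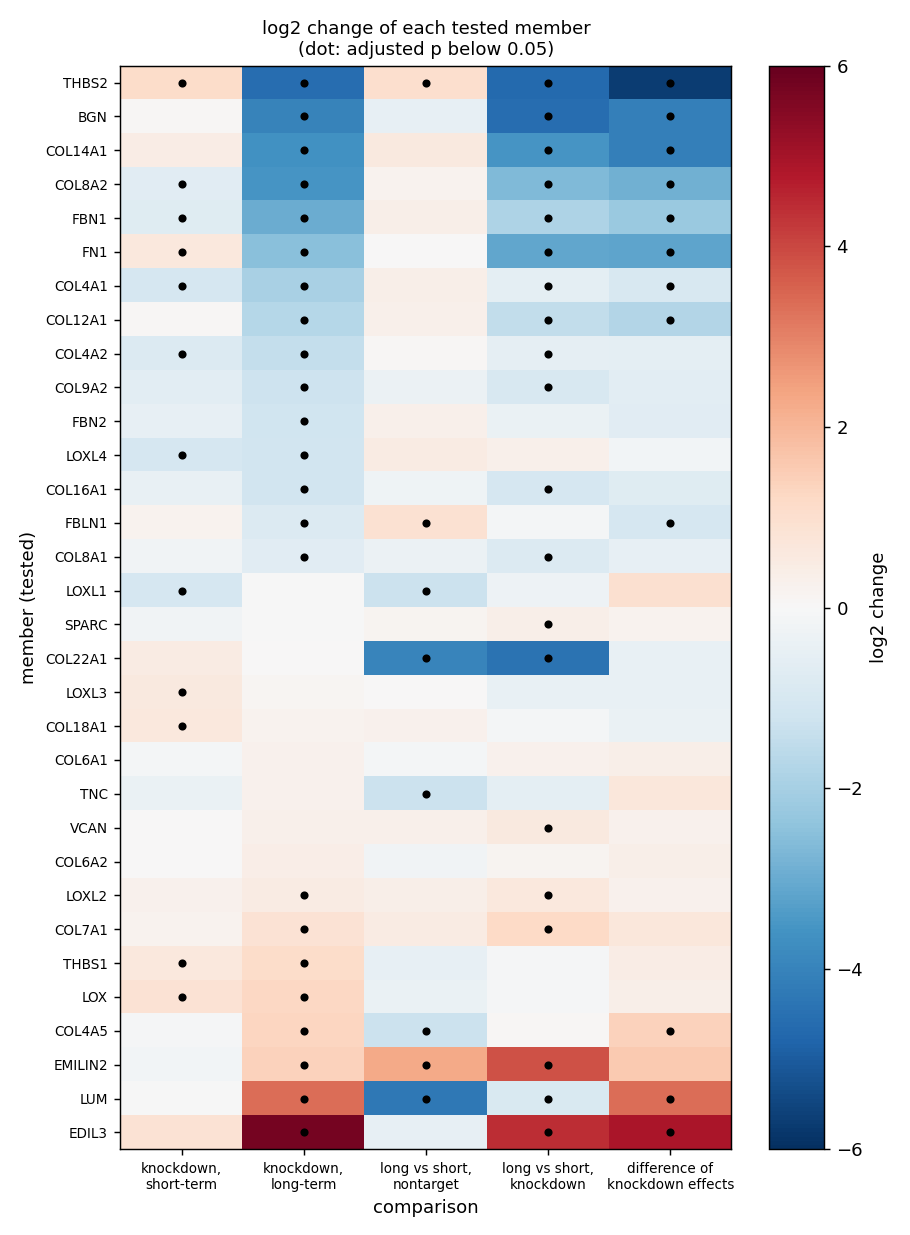
Fitted log2 change of the 32 tested members (vertical axis) in each of the 5 comparisons (horizontal axis), coloured from lower (blue) to higher (red), with a dot where the adjusted p was below 0.05. The long-term knockdown column holds 23 dots, 15 of them on lower members, and the short-term column holds 12.

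The most abundant members differed by length-scaled level. In short-term nontarget cells SPARC, a collagen-binding matricellular protein, stood at 396 ± 18.3 CPM per kilobase of its principal transcript (mean ± SD, n = 3). FN1 at 201 ± 39.9, COL4A2 at 193 ± 29.2, LOXL2 at 183 ± 4.99 and COL4A1 at 176 ± 39.01 CPM per kilobase followed, with spreads that overlapped between neighbours in this order. In long-term knockdown cells SPARC held 437 ± 36.3 and LOXL2 336 ± 39.9 CPM per kilobase, while FN1 was at 35.97 ± 3.92.

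COL4A1 and COL4A2, whose products form the common collagen IV trimer of basement membranes, lie head to head on chromosome 13 and share a promoter region. Their RefSeq promoter windows (GRCh38.p14, 250 bases before to 50 after the start) overlap by 226 bases, so the COL4A2 window, chr13:110307034-110307333 on the plus strand, is printed. The COL4A1 window holds 1 more GC box, outside the shared bases. Capitals mark the motifs searched on both strands, here the CCAAT box (CCAAT, in 34.6% of 35116 promoters) and the GC box (GGGCGG, in 45% of them), counted with overlaps.
COL4A2: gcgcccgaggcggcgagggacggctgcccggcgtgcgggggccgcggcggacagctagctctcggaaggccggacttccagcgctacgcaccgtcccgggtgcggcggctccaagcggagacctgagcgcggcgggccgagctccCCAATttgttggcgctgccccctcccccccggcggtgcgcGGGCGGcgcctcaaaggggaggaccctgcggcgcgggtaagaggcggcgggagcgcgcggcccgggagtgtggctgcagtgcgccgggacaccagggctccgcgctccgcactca

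COL4A1 was at 1088, 952 and 1451 CPM in short-term nontarget and 506, 510.4 and 723 CPM in short-term knockdown libraries. The long-term values were 1326, 1336 and 1859 CPM with the nontarget shRNA and 399, 326 and 447 CPM with knockdown. Knockdown libraries were below all nontarget libraries at both culture times. COL4A1 fell in short-term (log2 change -1.005 ± 0.19, adjusted p = 0.00243) and long-term cells (log2 change -1.95 ± 0.19, adjusted p = 1.51e-06). The long-term fall was the larger (log2 change -0.94 ± 0.26, adjusted p = 0.0245 for the difference), a call lost in 4 of 12 fits that left out 1 library (adjusted p from 0.0546 to 0.0629): short-term nontarget replicates 1 and 2, long-term nontarget replicate 3 and long-term knockdown replicate 2.

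COL4A2 was also lower with knockdown, at 1178, 1112 and 1468 CPM in short-term nontarget and 621, 662 and 854 CPM in short-term knockdown libraries. In long-term culture it was at 1083, 1189 and 1703 and 455, 433 and 596 CPM. Both knockdown groups lay below both nontarget groups. The change was -0.81 ± 0.18 on the log2 scale in short-term (adjusted p = 0.00731) and -1.42 ± 0.18 in long-term cells (adjusted p = 2.01e-05). The difference of the 2 effects was not called for COL4A2 (log2 change -0.61, adjusted p = 0.129), but it was without a low-count filter (adjusted p = 0.0025), without long-term knockdown replicate 3 (adjusted p = 0.0413) and without replicate 3 of all groups (adjusted p = 0.00199). Within knockdown cells COL4A1 and COL4A2 were also lower in long-term culture (log2 change -0.57 and -0.53, adjusted p = 0.0327 and 0.0385), calls that were lost without long-term knockdown replicate 1 or 2 or short-term knockdown replicate 3 (adjusted p from 0.0706 to 0.124 for COL4A1 and adjusted p from 0.116 to 0.133 for COL4A2).

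**Figure D2:**
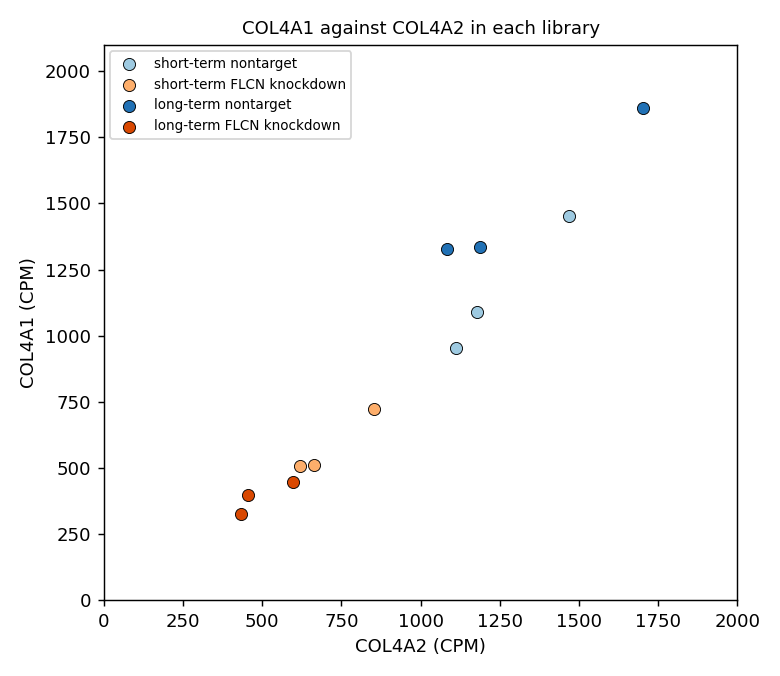
COL4A1 (vertical axis, CPM) against COL4A2 (horizontal axis, CPM) in the 12 libraries, 1 point each, coloured by group. The 6 knockdown libraries sit at the lower left, from 326 to 723 CPM of COL4A1, and the 6 nontarget libraries above them, from 952 to 1859 CPM.

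Per kilobase, COL4A1 relative to COL4A2 was 0.905 ± 0.0649 in short-term nontarget and 0.796 ± 0.0374 in short-term knockdown cells (mean ± SD of 3 ratios). It was 1.12 ± 0.0675 with the nontarget shRNA and 0.778 ± 0.0707 with knockdown in long-term cells. The long-term nontarget ratios were the highest of the 12, and no test was made on the ratio. COL4A5, a chain of a minor collagen IV network, had group means of 2.88 ± 0.826 CPM in short-term nontarget, 2.65 ± 0.569 CPM in short-term knockdown, 1.02 ± 0.0997 CPM in long-term nontarget and 2.85 ± 0.633 CPM in long-term knockdown cells. It was lowest in long-term nontarget cells, below short-term nontarget (log2 change -1.28 ± 0.30, adjusted p = 0.014; adjusted p from 0.0597 to 0.091 without short-term nontarget replicate 2 or long-term nontarget replicate 3) and below long-term knockdown (log2 change 1.28 ± 0.30, adjusted p = 0.00366). The difference of its knockdown effects (log2 change 1.37 ± 0.40, adjusted p = 0.0305) was not called by DESeq2 (adjusted p = 0.0604), without replicate 3 of all groups (adjusted p = 0.0965) or in 6 of 12 fits without 1 library (adjusted p from 0.0515 to 0.101): short-term nontarget replicate 2, short-term knockdown replicates 2 and 3, long-term nontarget replicates 2 and 3 and long-term knockdown replicate 1. COL4A3, COL4A4 and COL4A6 were not tested.

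In the short-chain network, COL8A1 and COL8A2 encode the chains of collagen VIII, a component of vessel and corneal matrices. COL8A2 was at 14.8, 12.6 and 14.9 CPM in short-term nontarget, 7.46, 9.07 and 9.56 CPM in short-term knockdown, 14.9, 17.8 and 16.04 CPM in long-term nontarget and 1.04, 1.32 and 1.02 CPM in long-term knockdown libraries. Long-term knockdown libraries were far below all others, and short-term knockdown libraries were below both nontarget groups. It fell with short-term knockdown (log2 change -0.69 ± 0.16, adjusted p = 0.00936; without short-term knockdown replicate 1, adjusted p = 0.0619) and with long-term knockdown (log2 change -3.55 ± 0.20, adjusted p = 1.30e-09), and the difference passed the test (log2 change -2.86 ± 0.26, adjusted p = 9.96e-07). COL8A1 fell as well with long-term knockdown (log2 change -0.70 ± 0.14, adjusted p = 0.00105), and its ratio to COL8A2 per kilobase went from 10.8 ± 2.68 with the nontarget shRNA to 96.96 ± 23.8 with knockdown (mean ± SD of 3 ratios). COL8A2 held 9, 9 and 6 counts in the long-term knockdown libraries, so the ratio there carries a large counting error. COL10A1 was not tested.

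FACIT collagens attach to the surface of fibrils, and 5 of the 10 members were tested. All 5 were lower in long-term than in short-term knockdown cells, where 15.2% of all tested genes were lower. Of these, COL22A1 passed the filter only through the short-term groups, where it is high, and COL9A2 lost its call in 4 fits without 1 library. The count therefore describes tested members only. COL12A1 was at 43.1, 41.9 and 71.96 CPM in short-term nontarget, 58.6, 53.2 and 52.2 CPM in short-term knockdown, 54.3, 65.5 and 72.1 CPM in long-term nontarget and 22.2, 18.9 and 16.96 CPM in long-term knockdown libraries. The long-term knockdown libraries were the lowest 3 and the other groups overlapped. Its fall with long-term knockdown (log2 change -1.70 ± 0.19, adjusted p = 2.61e-06) differed from the short-term effect (log2 change -1.77 ± 0.26, adjusted p = 1.21e-04).

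COL14A1 showed the same order at lower levels, with 4.92, 7.90 and 8.01 CPM in short-term nontarget, 9.24, 11.6 and 7.96 CPM in short-term knockdown, 9.11, 10.7 and 11.5 CPM in long-term nontarget and 0.347, 0.147 and 1.36 CPM in long-term knockdown libraries. The long-term knockdown libraries were far below all others (log2 change -3.65 ± 0.35, adjusted p = 4.45e-07 against long-term nontarget). Every long-term nontarget library was also above every short-term nontarget library, a difference that was not called (log2 change 0.58, adjusted p = 0.209). COL16A1 was at 22.4, 26.6 and 33.1, 20.6, 19.7 and 19.8, 15.5, 24.6 and 27.6 and 8.09, 11.3 and 10.8 CPM in the same order of groups, lowest with long-term knockdown (log2 change -1.15 ± 0.21, adjusted p = 3.65e-04). COL9A2, a chain of cartilage collagen IX, was at 7.52, 8.35 and 9.58, 4.30, 6.29 and 5.84, 4.96, 4.49 and 10.2 and 2.89, 1.61 and 3.39 CPM. It too fell with long-term knockdown (log2 change -1.25 ± 0.31, adjusted p = 0.00525). Its decline between knockdown groups (log2 change -0.98, adjusted p = 0.0312) was lost without any one of short-term knockdown replicates 2 and 3 and long-term knockdown replicates 1 and 2 (adjusted p from 0.0598 to 0.127).

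COL22A1, a collagen of tissue junctions, depended on culture time. Short-term libraries held 6.42, 4.71 and 5.81 CPM with the nontarget shRNA and 8.22, 8.19 and 7.43 CPM with knockdown, whereas the long-term libraries held 2 counts in all for each shRNA. The short-term nontarget level was 61.4 times the long-term one by summed counts (95% interval 16.6 to 513, counting error only), and the short-term knockdown level 85.4 times (23.3 to 711). Both declines passed the test (adjusted p = 3.00e-06 and 9.43e-08), but COL22A1 passed the low-count filter only through the short-term groups, where it is high. No fold from summed counts is given between the long-term groups. The fitted change between them rests on 2 counts for each shRNA, so it cannot show whether they differ.

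COL7A1, the anchoring fibril collagen below stratified epithelia, was at 52.9, 58.8 and 89.9 CPM in short-term nontarget, 61.2, 62.00 and 108 CPM in short-term knockdown, 67.7, 80.8 and 136 CPM in long-term nontarget and 187, 146 and 191 CPM in long-term knockdown libraries. The long-term knockdown libraries were the highest 3, and replicate 3 was the highest of its group in each group. COL7A1 was higher in long-term than in short-term knockdown cells (log2 change 1.19 ± 0.27, adjusted p = 0.00367). Its rise with long-term knockdown (log2 change 0.88 ± 0.26, adjusted p = 0.019) was lost in 4 of 6 fits without 1 library (adjusted p from 0.0724 to 0.0905): long-term nontarget replicates 1 and 2 and long-term knockdown replicates 1 and 3. Without a low-count filter both calls were lost (adjusted p = 0.0544 between knockdown groups and 0.147 with long-term knockdown).

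Of the beaded filament chains, COL6A1 and COL6A2 passed the filter and neither was called in any comparison by edgeR or DESeq2 over all libraries with the low-count filter. At an unadjusted p below 0.05, 1 of them passed with long-term knockdown. Without long-term nontarget replicate 3 both were called there (adjusted p = 0.0435 for COL6A1 and 0.0222 for COL6A2). COL6A2 was also called there without that filter (adjusted p = 0.00535) and with replicate number as a block (adjusted p = 0.0398). Without replicate 3 of all groups both were called with long-term knockdown, between nontarget groups and for the difference (adjusted p from 0.00228 to 0.0316). COL6A1 ranged from 144 to 248 CPM and COL6A2 from 134 to 292 CPM over the 12 libraries. COL18A1, the source of endostatin, rose with short-term knockdown (log2 change 0.63 ± 0.17, adjusted p = 0.0307), a call lost in 4 of 6 fits without 1 library (adjusted p from 0.0621 to 0.12): short-term nontarget replicates 1 and 2 and short-term knockdown replicates 2 and 3. With long-term knockdown COL18A1 was called only without long-term nontarget replicate 3 (adjusted p = 0.0425) or without replicate 3 of all groups (adjusted p = 0.0179). Reads of COL18A1 and its antisense neighbour SLC19A1 cannot be told apart in a library without strand.

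Small leucine-rich proteoglycans bind collagen and growth factors, and the 2 that were tested went opposite ways with long-term knockdown. BGN (biglycan, ENSG00000182492.15, chrX:153494939-153509554) was at 38.8, 36.3 and 25.9 CPM in short-term nontarget, 33.9, 33.3 and 40.5 CPM in short-term knockdown, 21.6, 21.2 and 28.9 CPM in long-term nontarget and 0.693, 1.32 and 1.87 CPM in long-term knockdown libraries. The highest long-term knockdown library was at 1.87 CPM and the lowest of all others at 21.2 CPM. BGN fell with long-term knockdown (log2 change -3.998 ± 0.26, adjusted p = 5.35e-09), and this differed from the short-term effect (log2 change -4.08 ± 0.32, adjusted p = 1.20e-07).

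LUM (lumican) was at 23.8, 27.3 and 19.3 CPM in short-term nontarget and 25.9, 27.9 and 15.6 CPM in short-term knockdown libraries. In long-term culture it was at 1.07, 1.55 and 0.259 CPM with the nontarget shRNA and 12.6, 14.5 and 9.16 CPM with knockdown. The long-term nontarget libraries were the lowest 3, and the 2 short-term groups overlapped. LUM declined with culture time in nontarget cells (log2 change -4.29 ± 0.34, adjusted p = 5.56e-07) and less in knockdown cells (log2 change -0.92 ± 0.24, adjusted p = 0.00923), so that it was higher with knockdown in long-term cells (log2 change 3.36 ± 0.35, adjusted p = 1.90e-06). DCN did not pass the filter.

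**Figure D3:**
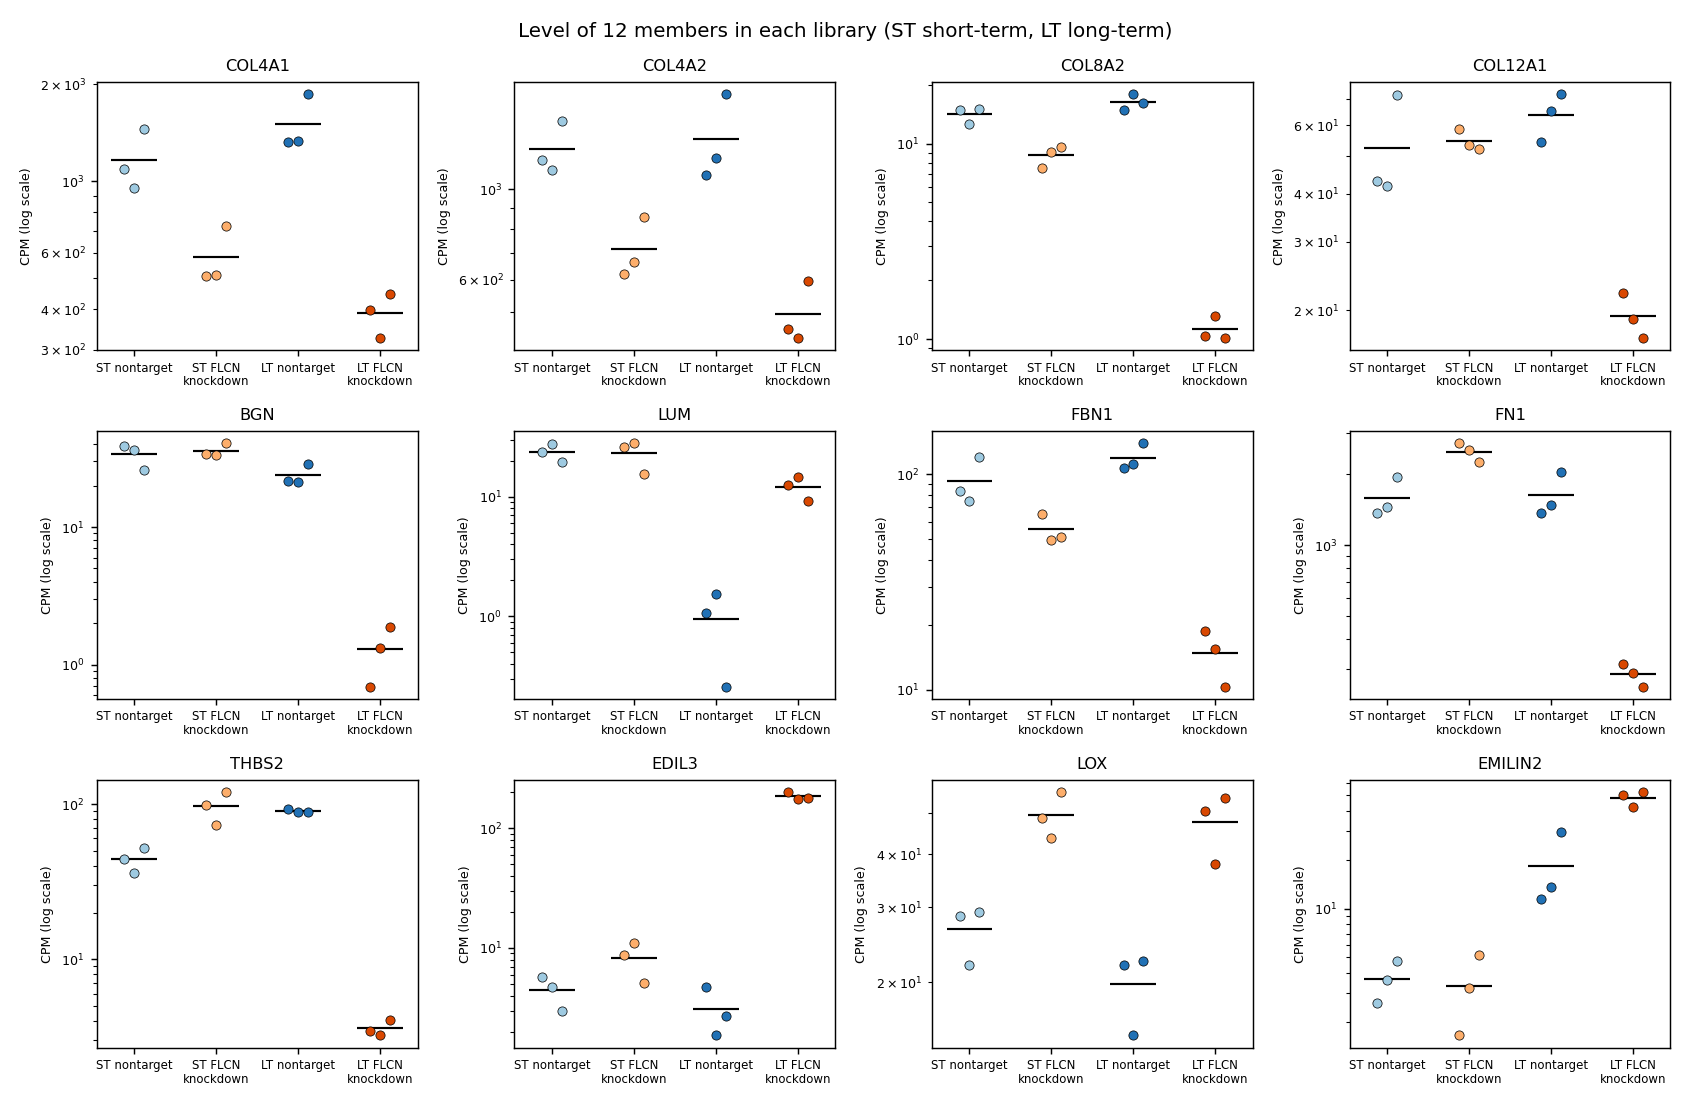
CPM of 12 members (vertical axes, log scale) in the 4 groups (horizontal axes), with 1 point per library and a line at the group mean. COL8A2, BGN, FBN1, FN1 and THBS2 are lowest in the 3 long-term knockdown libraries and EDIL3 is highest there, between 176 and 200.1 CPM.

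Fibrillins build the microfibrils that carry elastin and latent growth factors. FBN1 (ENSG00000166147.13, chr15:48408306-48645849) was at 83.2, 75.02 and 120.0 CPM in short-term nontarget, 65.4, 49.6 and 51.1 CPM in short-term knockdown, 107, 111 and 139 CPM in long-term nontarget and 18.7, 15.4 and 10.3 CPM in long-term knockdown libraries. Knockdown libraries were below nontarget libraries at both times. The short-term fall (log2 change -0.74 ± 0.19, adjusted p = 0.0213) was lost without short-term knockdown replicate 2 or short-term nontarget replicate 3 (adjusted p from 0.0679 to 0.113), and the long-term fall was larger (log2 change -2.96 ± 0.21, adjusted p = 5.14e-08; difference of effects -2.22 ± 0.28, adjusted p = 5.03e-05). FBN2 was at 72.5, 70.8 and 123.3, 69.2, 51.6 and 66.9, 97.3, 104 and 124 and 56.3, 44.02 and 42.6 CPM in the same order of groups, and fell with long-term knockdown (log2 change -1.18 ± 0.20, adjusted p = 2.55e-04). For FBN2 the difference of effects was not called (log2 change -0.68, adjusted p = 0.12). It was called without a low-count filter (adjusted p = 0.00389) and with replicate number as a block (adjusted p = 0.0308). Fits without short-term nontarget replicate 3 (adjusted p = 0.00541) or replicate 3 of all groups (adjusted p = 0.00547) also called it. Per kilobase, FBN1 relative to FBN2 was 1.03 ± 0.0253 with the nontarget shRNA and 0.292 ± 0.0544 with knockdown in long-term cells.

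EMILIN2, a microfibril-associated glycoprotein, was at 2.60, 3.65 and 4.71 CPM in short-term nontarget, 1.65, 3.22 and 5.13 CPM in short-term knockdown, 11.4, 13.6 and 29.9 CPM in long-term nontarget and 50.6, 42.7 and 52.4 CPM in long-term knockdown libraries. Long-term libraries were above all short-term libraries, and knockdown was above nontarget within them. It was higher with culture time in nontarget (log2 change 2.26 ± 0.37, adjusted p = 0.00116) and in knockdown cells (log2 change 3.81 ± 0.36, adjusted p = 1.52e-06). The difference of its knockdown effects was not called (log2 change 1.55, adjusted p = 0.083). It was called without a low-count filter (adjusted p = 0.005), with replicate number as a block (adjusted p = 0.00481) and without replicate 3 of all groups (adjusted p = 2.01e-04). Fits without short-term knockdown replicate 3 (adjusted p = 0.0267) or long-term nontarget replicate 3 (adjusted p = 0.00196) also called it. FBLN1 was at 90.3, 99.5 and 106, 98.8, 111 and 128, 154, 174 and 231 and 82.2, 91.3 and 142 CPM in that order of groups. The long-term nontarget libraries were the highest 3, above short-term nontarget (log2 change 0.92, adjusted p = 0.00529) and above long-term knockdown (adjusted p = 0.00276), and its knockdown effects differed (log2 difference -1.02, adjusted p = 0.0152). ELN and EMILIN1 were not tested.

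Among the tested adhesive and matricellular proteins, FN1, THBS2 and EDIL3 changed most with long-term knockdown. Their promoter windows are shown because FN1 and THBS2 moved in opposite directions in the 2 knockdown comparisons. Capitals mark the GC box and the CCAAT box, and in THBS2 the TATA box (TATAAA, in 11.5% of promoters) and the TEAD motif (GGAATG, in 14% of them). The E-box CACGTG (7.26% of promoters) and the AP-1 motif TGACTCA (4.95%) were searched and not found in these windows. The windows are FN1 chr2:215436019-215436318, THBS2 chr6:169253797-169254096 and EDIL3 chr5:84384831-84385130, all GRCh38.p14 and minus strand, 1 of 2 windows that RefSeq gives for EDIL3. RefSeq held windows for 20 of the 23 members given by library.
FN1: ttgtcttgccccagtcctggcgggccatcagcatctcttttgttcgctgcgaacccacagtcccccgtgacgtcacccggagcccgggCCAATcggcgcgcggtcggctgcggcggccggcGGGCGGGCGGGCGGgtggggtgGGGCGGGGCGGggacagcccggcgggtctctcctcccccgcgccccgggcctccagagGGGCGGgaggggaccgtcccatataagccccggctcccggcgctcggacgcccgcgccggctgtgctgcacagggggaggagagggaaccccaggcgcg
THBS2: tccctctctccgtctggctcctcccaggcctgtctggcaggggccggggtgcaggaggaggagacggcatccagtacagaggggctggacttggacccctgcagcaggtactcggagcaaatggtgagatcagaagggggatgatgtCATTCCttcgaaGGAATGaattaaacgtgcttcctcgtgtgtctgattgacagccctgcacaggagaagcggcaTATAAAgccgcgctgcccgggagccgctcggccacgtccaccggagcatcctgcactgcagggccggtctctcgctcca
EDIL3: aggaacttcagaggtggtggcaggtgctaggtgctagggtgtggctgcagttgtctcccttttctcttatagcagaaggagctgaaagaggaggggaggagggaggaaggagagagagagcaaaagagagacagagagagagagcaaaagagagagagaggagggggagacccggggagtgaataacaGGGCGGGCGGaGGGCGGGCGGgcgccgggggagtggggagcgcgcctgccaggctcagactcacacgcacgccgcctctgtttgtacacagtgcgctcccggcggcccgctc

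FN1 (ENSG00000115414.18, chr2:215360440-215436172) encodes fibronectin, which assembles on integrins and guides collagen deposition. It was at 1368, 1451 and 1950 CPM in short-term nontarget and 2707, 2537 and 2251 CPM in short-term knockdown libraries. In long-term culture it was at 1364, 1482 and 2037 CPM with the nontarget shRNA and 313, 288 and 251 CPM with knockdown. Knockdown libraries were above nontarget in short-term and far below it in long-term cells. FN1 rose with short-term knockdown (log2 change 0.65 ± 0.15, adjusted p = 0.0109), a call lost without short-term nontarget replicate 1 or 2 or short-term knockdown replicate 1 (adjusted p from 0.0506 to 0.0705), and fell with long-term knockdown (log2 change -2.52 ± 0.16, adjusted p = 8.60e-09). The 2 effects differed (log2 change -3.17 ± 0.22, adjusted p = 5.01e-08), and the 40 nearest tested genes had a median log2 change of 0.40 with short-term and -0.067 with long-term knockdown, -0.35 between knockdown groups and -0.46 for the difference, whose part in the FN1 values was not tested.

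THBS2 (thrombospondin 2), which limits angiogenesis, was at 44.4, 35.8 and 52.5 CPM in short-term nontarget and 98.6, 72.8 and 119 CPM in short-term knockdown libraries. It was at 93.5, 88.4 and 88.5 CPM in long-term nontarget and 3.47, 3.23 and 4.07 CPM in long-term knockdown libraries. Knockdown was above nontarget in short-term and below it in long-term cells, with no overlap in either. THBS2 rose with short-term knockdown (log2 change 1.12 ± 0.16, adjusted p = 1.65e-04) and fell with long-term knockdown (log2 change -4.55 ± 0.21, adjusted p = 8.29e-11), and the effects differed (log2 change -5.68 ± 0.26, adjusted p = 2.20e-10).

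THBS1, the activator of latent TGF-beta, was at 341, 282 and 417 CPM in short-term nontarget, 486, 404 and 742 CPM in short-term knockdown, 230.4, 216 and 296 CPM in long-term nontarget and 531, 462 and 575 CPM in long-term knockdown libraries. Long-term knockdown libraries were above long-term nontarget (log2 change 1.08 ± 0.20, adjusted p = 6.94e-04), while the short-term groups overlapped. The short-term rise (log2 change 0.65 ± 0.20, adjusted p = 0.0476) was lost in 4 of 6 fits without 1 library (adjusted p from 0.0565 to 0.188): short-term nontarget replicates 1 and 2 and short-term knockdown replicates 1 and 3. It was also lost with only the compared groups fitted (adjusted p = 0.0769). Per kilobase, THBS1 relative to THBS2 was 2.05 ± 0.384 with the nontarget shRNA and 109 ± 4.82 with knockdown in long-term cells.

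EDIL3 (ENSG00000164176.12, chr5:83940554-84384793), an integrin-binding protein of developing vessels, was at 5.74, 4.71 and 2.98 CPM in short-term nontarget, 8.73, 10.97 and 5.13 CPM in short-term knockdown, 4.69, 1.86 and 2.72 CPM in long-term nontarget and 200.1, 176 and 178 CPM in long-term knockdown libraries. The long-term knockdown libraries stood above all others. EDIL3 rose with long-term knockdown (log2 change 5.76 ± 0.25, adjusted p = 1.48e-10) and the knockdown effects differed (log2 change 4.91 ± 0.41, adjusted p = 6.54e-07). With short-term knockdown its adjusted p was 0.0651, and it was called by DESeq2 (adjusted p = 0.0115), without a low-count filter (adjusted p = 5.46e-04), without short-term knockdown replicate 3 (adjusted p = 0.00994) and without replicate 3 of all groups (adjusted p = 0.0168). TNC was at 11.3, 8.66 and 17.3, 8.48, 7.46 and 12.2, 5.76, 4.65 and 4.53 and 8.44, 6.02 and 3.05 CPM in that order of groups, with every long-term nontarget library below every short-term nontarget library. It declined with culture time in nontarget cells (log2 change -1.27 ± 0.30, adjusted p = 0.0148), a call lost without long-term nontarget replicate 2 or 3 or short-term nontarget replicate 3 (adjusted p from 0.0594 to 0.0849). SPARC and VCAN were higher in long-term than in short-term knockdown cells (log2 change 0.36 and 0.58, adjusted p = 0.0144 and 0.0215), and each lost the call without any one of 3 libraries (adjusted p from 0.0521 to 0.065 for SPARC without short-term knockdown replicate 1 or 2 or long-term knockdown replicate 1, 0.0509 with only the compared groups fitted, and adjusted p from 0.0544 to 0.117 for VCAN without long-term knockdown replicate 1 or 2 or short-term knockdown replicate 3). POSTN was not tested.

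**Figure D4:**
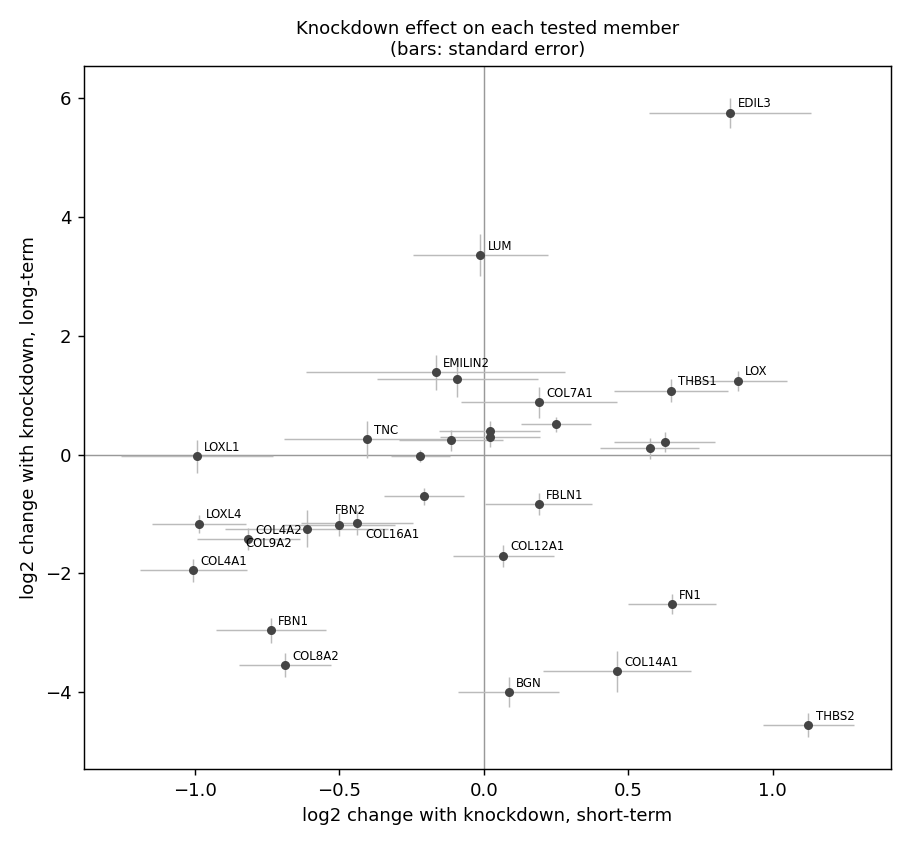
Log2 change with knockdown in short-term cells (horizontal axis) and long-term cells (vertical axis) for the tested members other than COL22A1, with approximate standard errors as bars. FN1 and THBS2, called in both comparisons, lie at the lower right, and EDIL3 at the top with a long-term change of 5.76. COL14A1, FBLN1, BGN and COL12A1 also lie at the lower right but were not called with short-term knockdown.

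Lysyl oxidases crosslink collagen and elastin. LOX was at 28.7, 22.02 and 29.2 CPM in short-term nontarget, 48.6, 43.6 and 55.9 CPM in short-term knockdown, 21.98, 15.02 and 22.5 CPM in long-term nontarget and 50.4, 38.00 and 54.3 CPM in long-term knockdown libraries. Knockdown libraries were above nontarget libraries at both times (adjusted p = 0.00249 short-term and 2.92e-05 long-term), and the effects did not pass the test of a difference (adjusted p = 0.369). LOXL4 was at 23.1, 19.9 and 20.6, 11.9, 11.6 and 7.96, 27.7, 29.7 and 32.7 and 11.3, 14.1 and 14.6 CPM in that order of groups, with knockdown below nontarget at both times. It fell by 0.99 on the log2 scale in short-term cells (adjusted p = 7.14e-04) and fell by 1.17 in long-term cells (adjusted p = 2.00e-05), beside a median log2 change of 0.33 for the 40 nearest tested genes in short-term and 0.052 in long-term cells, whose part was not tested.

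LOXL1 was highest in short-term nontarget libraries, at 31.3, 30.4 and 31.9 CPM, against 14.04, 15.1 and 17.7 CPM in short-term knockdown, 11.1, 9.60 and 16.8 CPM in long-term nontarget and 9.13, 8.07 and 20.7 CPM in long-term knockdown libraries. The other 3 groups overlapped. LOXL1 declined with culture time in nontarget cells (log2 change -1.29 ± 0.27, adjusted p = 0.00648), and its short-term fall with knockdown (log2 change -0.99 ± 0.26, adjusted p = 0.024) was lost in 5 of 6 fits without 1 library (adjusted p from 0.0555 to 0.0877), all but the fit without short-term knockdown replicate 3. The difference of LOXL1 knockdown effects was not called (log2 change 0.97, adjusted p = 0.119). It was called without a low-count filter (adjusted p = 0.00219) and with replicate number as a block (adjusted p = 0.0137). Fits without long-term nontarget replicate 3 (adjusted p = 0.0498) or replicate 3 of all groups (adjusted p = 0.0197) also called it. LOXL2, the most abundant oxidase, was higher with long-term knockdown (log2 change 0.51 ± 0.12, adjusted p = 0.0038). LOXL3 rose with short-term knockdown (adjusted p = 0.0405), a call lost in all 6 fits without 1 library of these groups (adjusted p from 0.0527 to 0.161), by DESeq2 (adjusted p = 0.0545) and without replicate 3 of all groups (adjusted p = 0.117). Between knockdown groups LOXL3 was called, lower in long-term culture, with replicate number as a block (adjusted p = 0.0474) and without long-term knockdown replicate 2 (adjusted p = 0.0466).

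**Figure D5:**
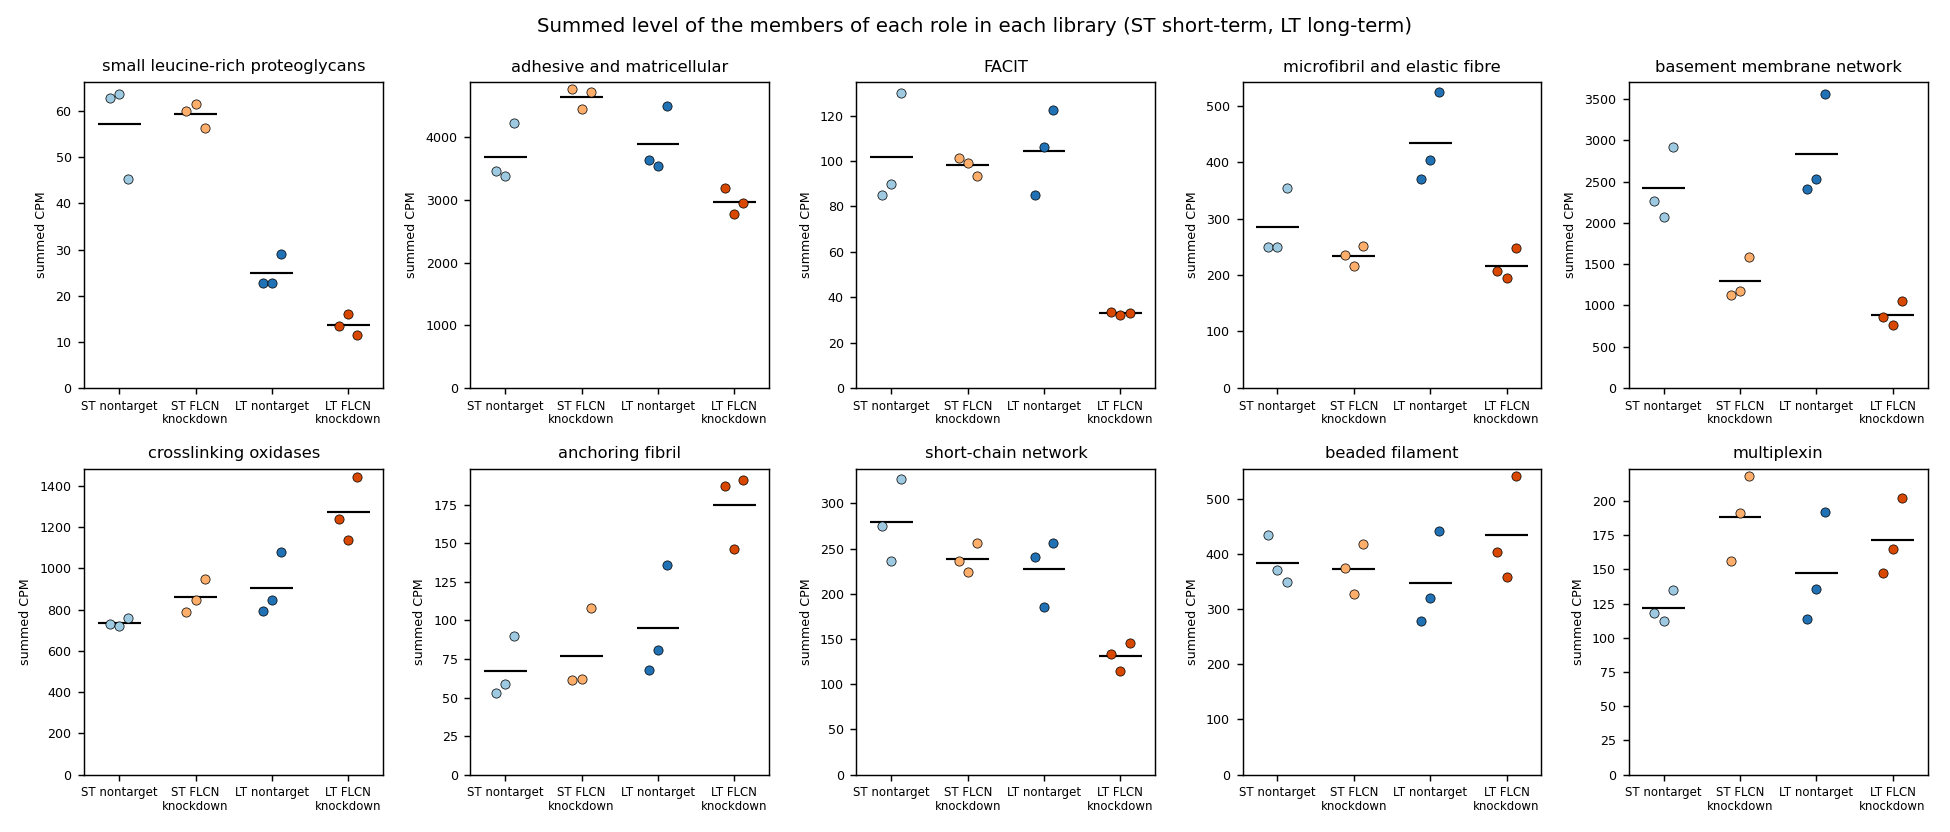
Summed CPM of the members of each role (vertical axes, from 0) in the 4 groups (horizontal axes), with 1 point per library and a line at the group mean. The basement membrane sum is between 762 and 1581 CPM in the 6 knockdown libraries and between 2068 and 3563 CPM in the 6 nontarget libraries.

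The 24 members that were not tested reached at most 1.42 CPM in any library, and 2 of them, COL13A1 and COL19A1, had 0 counts in all libraries, which allows up to 0.347 to 0.531 CPM in a library (3 counts, counting error only). The transmembrane collagens COL13A1, COL17A1, COL23A1 and COL25A1 and the remaining chains COL24A1, COL26A1 and COL28A1 were all among them.

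Genes that modify, secrete and process collagen were taken from a list of 29, of which 27 were tested. With short-term knockdown 0 rose by edgeR (1 at an unadjusted p below 0.05, 1 by DESeq2) and 6 fell, and with long-term knockdown 4 rose and 11 fell, with medians of -0.20 and -0.29 beside 0.00013 and 0.00095 over all tested genes. Over all tested genes 5.62% rose and 4.71% fell with short-term knockdown, and 13.7% rose and 15.8% fell with long-term knockdown. TLL1, a procollagen C-proteinase, fell with short-term (log2 change -1.28 ± 0.20, adjusted p = 4.69e-04) and long-term knockdown (log2 change -3.47 ± 0.24, adjusted p = 1.45e-08). TLL2 fell with long-term knockdown (log2 change -2.04 ± 0.33, adjusted p = 1.28e-04) and was higher in long-term than in short-term nontarget cells (log2 change 1.14 ± 0.30, adjusted p = 0.0264), a call lost without short-term nontarget replicate 1 or 3 or long-term nontarget replicate 2 or 3 (adjusted p from 0.0814 to 0.13) and without replicate 3 of all groups (adjusted p = 0.0741). PCOLCE2, an enhancer of such proteinases, fell with short-term knockdown (log2 change -0.88 ± 0.15, adjusted p = 9.81e-04) and rose with long-term knockdown (log2 change 1.03 ± 0.14, adjusted p = 2.12e-05). The lysyl hydroxylase PLOD2 was higher in long-term than in short-term culture, in nontarget (log2 change 0.70 ± 0.11, adjusted p = 7.42e-04) and in knockdown cells (log2 change 1.57 ± 0.12, adjusted p = 2.21e-08). Of 14 basement membrane partners and collagen receptors, 10 were tested. With short-term knockdown edgeR and DESeq2 called 0, and 2 were higher and 2 lower at an unadjusted p below 0.05. With long-term knockdown 1 rose and 3 fell. NID2, which links laminin to collagen IV, was higher in long-term than in short-term nontarget cells (log2 change 1.60 ± 0.26, adjusted p = 0.00103). It fell with long-term knockdown (log2 change -3.36 ± 0.28, adjusted p = 3.20e-07), below short-term knockdown as well (log2 change -1.33 ± 0.27, adjusted p = 0.00163), and the collagen uptake receptor MRC2 rose (log2 change 1.65 ± 0.18, adjusted p = 3.11e-06).

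The cells were checked against marker lists. Of 14 proximal tubule markers, 4 were tested and LRP2, HNF4A, SLC22A6 and SLC22A8 had 0 counts in every library, while SLC5A2, a glucose transporter of that segment, had group means from 10.02 to 14.2 CPM. The most abundant tubule marker was PAX8, and the list summed to 230.3, 242 and 204 CPM in short-term nontarget, 281, 292 and 301 CPM in short-term knockdown, 277, 305 and 340.3 CPM in long-term nontarget and 230.1, 242 and 288 CPM in long-term knockdown libraries. With long-term knockdown PAX8 fell (log2 change -0.61 ± 0.10, adjusted p = 2.04e-04) and GGT1 rose (log2 change 0.84 ± 0.16, adjusted p = 6.03e-04). Both rose with short-term knockdown (log2 change 0.33 and 0.51, adjusted p = 0.0491 and 0.0483), calls lost in all 6 fits without 1 library of these groups (adjusted p from 0.0559 to 0.196 for PAX8 and adjusted p from 0.0721 to 0.181 for GGT1). In long-term culture PAX8 was higher among nontarget cells (log2 change 0.63 ± 0.10, adjusted p = 7.55e-04), 1 of the 4 tubule markers, where 3.17% of all tested genes were higher. Among knockdown cells 2 of the 4 were lower, where 15.2% of all tested genes were lower: PAX8 (log2 change -0.31, adjusted p = 0.0309) and MIOX (log2 change -0.80, adjusted p = 0.0133). These 2 calls were lost for PAX8 without a low-count filter (adjusted p = 0.052), with only the compared groups fitted (adjusted p = 0.0542) or without short-term knockdown replicate 2 or 3 or long-term knockdown replicate 1 or 2 (adjusted p from 0.0655 to 0.134), and for MIOX without short-term knockdown replicate 1 or long-term knockdown replicate 2 (adjusted p from 0.0537 to 0.06).

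Of 6 epithelial markers 5 were tested, led by KRT8, and their sum ranged from 2161 to 3595 CPM. With long-term knockdown 2 of the 5 fell, where 15.8% of all tested genes fell: KRT7 (log2 change -1.41 ± 0.31, adjusted p = 0.0026) and EPCAM (log2 change -0.58 ± 0.18, adjusted p = 0.0237), the latter not called without long-term nontarget replicate 1 or 2 or long-term knockdown replicate 1 or 2 (adjusted p from 0.0702 to 0.0803). Between knockdown groups 3 of the 5 were lower in long-term culture (median -1.29), where 15.2% of all tested genes were lower: EPCAM (-1.29), KRT7 (-1.60) and KRT19, which was lower in long-term culture with either shRNA (log2 change -2.64 with nontarget and -2.91 with knockdown, adjusted p = 4.69e-07 and 3.07e-08). KRT18 was higher in long-term nontarget than in short-term nontarget cells (log2 change 0.44, adjusted p = 0.0307), a call lost in 5 of 6 fits without 1 library (adjusted p from 0.0767 to 0.148), all but the fit without short-term nontarget replicate 1. Of the 12 fibroblast markers 5 were tested. The list, led by COL1A1 and with TWIST2 and DPT at 0 counts, summed to 41.96, 40.9 and 58.3 CPM, 43.8, 43.6 and 74.3 CPM, 39.3, 40.6 and 52.01 CPM and 29.01, 31.4 and 44.9 CPM in that order of groups. With long-term knockdown PDGFRB was lower (log2 change -3.10 ± 0.39, adjusted p = 1.00e-05), as was TCF21 (log2 change -0.93, adjusted p = 0.0377), a call lost in all 6 fits without 1 library of these groups (adjusted p from 0.0543 to 0.0929). TWIST1 was higher (log2 change 0.78, adjusted p = 0.0321), a call lost without long-term nontarget replicate 1 or 2 or long-term knockdown replicate 3 (adjusted p from 0.115 to 0.139). Between knockdown groups 3 of the 5 were lower in long-term culture (median -1.30): TCF21 (log2 change -1.30, adjusted p = 0.00577), PDGFRB (-1.40, adjusted p = 0.025) and THY1 (-1.61, adjusted p = 0.0244). PDGFRB lost that call without short-term knockdown replicate 3 or long-term knockdown replicate 1 or 2 (adjusted p from 0.0821 to 0.136), and THY1 without short-term knockdown replicate 2 or long-term knockdown replicate 3 (adjusted p from 0.0537 to 0.0813). The knockdown effects of 3 of the 5 epithelial markers (KRT7, EPCAM and KRT18, list median -0.57), 2 of the 5 fibroblast markers (PDGFRB and THY1, list median -0.97) and 1 of the 4 tubule markers (PAX8) also differed with a negative difference, against 8.43% of all tested genes. The call was lost for KRT18 in 8 of 12 fits without 1 library (adjusted p from 0.0623 to 0.115): short-term nontarget replicates 2 and 3; short-term knockdown replicate 3; long-term nontarget replicates 1, 2 and 3; long-term knockdown replicates 1 and 2. It was lost for THY1 in 6 of 12 (adjusted p from 0.0501 to 0.0788): short-term nontarget replicates 1 and 2; short-term knockdown replicate 2; long-term nontarget replicates 1, 2 and 3. The part of these markers in the changes of the members was not tested. None of 7 endothelial or 6 leukocyte markers was tested, and their sums stayed at or below 2.2 CPM.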

How the data were processed

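Per the labels and the study's methods, the authors prepared libraries with a kit that does not mark strand, sequenced them, aligned reads to GRCh38 with STAR, counted them per gene with featureCounts and normalized them with DESeq2. Versions, annotation release and strand setting were not given in the sources used here. The deposited count of each gene in each library was used for all tests. The deposited normalized values are a score, the count divided by a size factor and rounded by the authors, and were used only to check scaling.

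Gene IDs were matched to GENCODE 29, 55661 of 58288 with the same version, 2364 with another and 263 without a match. Counts were filtered with filterByExpr, scaled by TMM and fitted with edgeR 4.0.16 in R 4.3.3 by the quasi-likelihood test. The fit had 1 term per group over 12 libraries and a prior count of 2, so fitted changes of low genes are shrunk. For COL22A1 the fitted falls with culture time were 15.7 times (nontarget) and 21.6 times (knockdown), where summed counts gave 61.4 and 85.4 times. A gene was called at an adjusted p below 0.05. Members given by library reached a group mean of 5 CPM and had a called log2 change of 1 or more either way in at least 1 comparison. From the processing, partner and receptor lists, called genes with such a change were named, at most 4 per direction and comparison. Members and lists were chosen with earlier results of these data known. Alternatives were RLE factors, DESeq2 1.42.0, other filters, fold limits, a replicate block, fits of the compared groups alone and fits without 1 library. Without strand, reads of genes with overlapping exons cannot be told apart. This touched VCAN, TNC, COL16A1, LOX, SPARC, LOXL1, COL4A2, LOXL4, FBN2, EDIL3, THBS1, LOXL3 and COL18A1 (antisense), COL7A1 (a microRNA) and LOXL2 (ENTPD4 and an antisense gene). Deviations from group means of same-numbered libraries correlated over 0.1 in every pair of the long-term groups (r of 0.36, 0.15 and 0.53) and of the knockdown groups (r of 0.29, 0.36 and 0.53). Long-term nontarget replicate 1 and long-term knockdown replicate 2 also correlated (r of 0.28). Deviations cancel within a group, so a trait shared by replicate 3 raises r among the other libraries too. These values therefore cannot show whether the numbers pair libraries, and the labels give no source for it. Results of some marker genes are not reported here. Tests were tried on simulated data with known changes. Intervals and floors cover counting error only.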

Additional observations from a re-analysis of the deposited data

Results flagged for a closer look

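Knockdown effects that differed between long-term and short-term cells, by the test of that difference, are listed with the log2 difference (long-term minus short-term). It was negative for THBS2 (-5.68), COL14A1 (-4.11), BGN (-4.08), FN1 (-3.17), COL8A2 (-2.86), FBN1 (-2.22), COL12A1 (-1.77), FBLN1 (-1.02) and COL4A1 (-0.94). It was positive for EDIL3 (4.91), LUM (3.37) and COL4A5 (1.37). THBS2 and FN1 were called in opposite directions in the 2 knockdown comparisons.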

How the results depend on the processing

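Members called numbered 12, 23, 8, 20 and 12 in the short-term knockdown, long-term knockdown, nontarget culture time, knockdown culture time and difference comparisons. RLE factors gave the same counts and the same members, and DESeq2 gave 12, 23, 9, 20 and 11. Without a filter the counts were 14 for nontarget culture time and 19 for the difference, of 54 members tested, and with a mean of 10 CPM or more 5 of 26 for nontarget culture time. With a fold limit of 2.5 for knockdown, edgeR left 0 members with short-term knockdown (0 at an unadjusted p below 0.05 and 0 by DESeq2), beside 223 of 13959 genes. That limit left 12 members with long-term knockdown, beside 820 of all genes. A limit of 2 for culture time left 11 members between knockdown groups, beside 1156 of all genes. Without 1 library at a time the counts ranged from 7 to 10, 22 to 26, 6 to 10, 16 to 21 and 10 to 13. Over all genes the calls ranged from 874 to 1258, 3295 to 4190, 581 to 906, 2829 to 3870 and 1463 to 2291. These fits tested between 14170 and 14262 genes. In the short-term comparison 7 members were called without short-term nontarget replicate 1 or 2 or short-term knockdown replicate 1. These fits called 874, 906 and 986 of all genes. Without replicate 3 of all groups, an alternative chosen after seeing the data, 15, 27, 18, 22 and 21 members were called. Over all genes the calls were 2000, 4761, 1586, 4422 and 2341 of 14083, against 1441, 4119, 1054, 3719 and 1872 of 13959 with all libraries. The cause was not tested.

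By their deviations same-numbered libraries correlated over 0.1 throughout the long-term knockdown and the knockdown culture time comparisons. In those with short-term nontarget cells r was 0.0061, 0.13 and 0.056 for short-term knockdown and -0.054, 0.10 and 0.018 for nontarget culture time. Over all groups r ranged from -0.12 to 0.53 for 18 same-numbered pairs and from -0.46 to 0.28 for 36 others, and not every library correlated best with its own number. A fit with replicate number as a block takes variation shared by a number out of the residual. It called 24 and 21 members in the long-term knockdown and knockdown culture time comparisons (over all genes 5137 and 4805, against 4119 and 3719 without it). There the block gained COL6A2 and LOXL3 and changed no other call of a member. In the short-term knockdown, nontarget culture time and difference comparisons the block gave 16, 16 and 21 members, and over all genes it raised the calls from 1441, 1054 and 1872 to 2359, 1786 and 2879 of 13959. Under the block EDIL3 was called with short-term knockdown (adjusted p = 0.0158) and COL4A2 for the difference (adjusted p = 3.55e-04).

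The sign of changes that were not called with all libraries turned when libraries were left out, with the range over those fits given. For short-term knockdown these were COL12A1 (-0.068 to 0.40), EMILIN2 (-0.55 to 0.17), LUM (-0.16 to 0.19), BGN (-0.16 to 0.20) and COL7A1 (-0.12 to 0.45). For long-term against short-term nontarget these were FN1 (-0.16 to 0.21) and COL4A2 (-0.15 to 0.21). For long-term knockdown these were TNC (-0.11 to 0.53), LOXL1 (-0.53 to 0.24) and COL22A1 (-0.41 to 0.23). The COL22A1 range rests on 2 counts in all for each shRNA, so its sign cannot be read. For long-term against short-term knockdown these were FBLN1 (-0.37 to 0.043), LOX (-0.15 to 0.072) and THBS1 (-0.23 to 0.23). Without replicate 3 of all groups COL12A1 was called higher with short-term knockdown (adjusted p = 0.0277) and FBLN1 lower in long-term than in short-term knockdown cells (adjusted p = 0.039). No called change of the 23 members given by library turned sign under any alternative run. The low-count filter left out members below about 1.46 CPM. Without it 54 members were tested, and COL26A1 was called in all comparisons but short-term knockdown, and COL17A1 and COL4A4 between knockdown groups.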
